A study of Mus musculus with 7 samples.

Results

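The 9 genes described here encode transcription factors that set or oppose the identity of alveolar macrophages, the phagocytes that live in the airspaces of the lung. They are Pparg, Cebpa, Cebpb, Bhlhe40, Bhlhe41, Spi1, Egr2, Maf and Klf4, chosen by symbol for their known roles, and all 9 were found among the 26143 named genes of the count table. The factors and gene lists were chosen with earlier results of these data known, so their counts are not independent of those results. RNA was sequenced from sorted alveolar macrophages of mice aged 4 months. The Cish knockout group (KO) was a Cish-/- strain on C57BL/6 with 3 libraries, and the wild-type group (WT) was C57BL/6 with 4 libraries; no treatment is labelled for either. The labels do not describe the Cish allele, and they give no sex, litter or mouse of origin for a library. The p-values therefore weigh a difference only against the spread of these libraries. Cish is a feedback inhibitor of cytokine receptors that is induced through STAT5, and the study asks what it does to the lung-specific programme of these cells.

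Macrophages from different tissues share PU.1, the product of Spi1, and the C/EBP proteins, and a tissue signal then adds further factors. In the lung this signal is GM-CSF, which acts through STAT5, together with TGF-beta, and both induce Pparg, the nuclear receptor at the head of the lipid-handling programme of alveolar macrophages. EGR2 and the paired repressors BHLHE40 and BHLHE41 also maintain the alveolar state in mice, whereas MAF marks other resident macrophages and restrains self-renewal.

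The libraries held 26780291 to 30989230 counts in KO and 30637634 to 34483612 in WT. Levels are given as CPM, counts relative to a library total that was scaled with TMM factors, and genotypes were compared with edgeR's quasi-likelihood test, with p adjusted by the Benjamini-Hochberg method over all 12759 genes tested. Cish itself had 12.9, 14.3 and 10.9 CPM in KO and 46.3, 29.6, 38.1 and 67.9 CPM in WT, without overlap. Its log2 difference was -1.84 with an edgeR adjusted p of 0.0519, which was 0.0376 without KO 3, 0.0266 without WT 2 and 0.0126 without WT 4, and 0.0871 to 0.225 without any other single library. By DESeq2 the log2 difference of Cish was -1.85, with an adjusted p of 2.99e-11. Markers of alveolar macrophages were abundant in all 7 libraries: Siglecf had 372 to 455 CPM in KO and 521 to 587 CPM in WT, and Chil3, picked after its values were seen, had 40503 to 72178 CPM in KO and 16623 to 50491 CPM in WT. Among markers of other cells, those of red blood cells summed to 285 to 856 CPM in KO and 13.6 to 348 CPM in WT. Markers of lung epithelium summed to 31.9 to 130 CPM in KO and 18.1 to 78.5 CPM in WT, and all 6 tested were higher in KO; those of fibroblasts and endothelium summed to 4.89 to 17.8 CPM in KO and 1.65 to 7.42 CPM in WT, and all 7 were higher in KO. T and NK cell markers summed to 3.24 to 12.7 CPM in KO and 1.88 to 5.66 CPM in WT, with all 7 higher in KO. Monocyte markers, mostly Fn1, summed to 85.0 to 345 CPM in KO and 111 to 247 CPM in WT. Neutrophil markers, mostly S100a8, summed to 13.3 to 35.2 CPM in KO and 7.76 to 20.2 CPM in WT. Of the 3 neutrophil markers tested, 1 was higher in KO, S100a8, and 2 were lower, S100a9 and Cxcr2. B cell markers summed to 6.03 to 29.4 CPM in KO and 4.57 to 16.6 CPM in WT. Dendritic cell markers reached at most 8.13 CPM in KO and 6.23 CPM in WT, and eosinophil markers 0.515 CPM in KO and 0.501 CPM in WT. EdgeR called 0 of the markers of other cells. DESeq2 called 3 of the 7 fibroblast and endothelium markers higher in KO, namely Cdh5, Cldn5 and Pecam1. It also called 1 of the 7 T and NK cell markers, Klrb1c, higher, and none of the other lists, against 2.48% of all genes. No marker of these lists was at 0 in every library, and the part of these cells in the results below was not tested. WT 4 lay nearer to the KO libraries than the other WT libraries did on the first principal component, which held 42.6% of the variance.

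None of the 9 factors passed the test between genotypes. By edgeR 0 of 9 were called in either direction, against 0.0862% of all genes tested, and by DESeq2 also 0 of 9, against 5.20%. At an unadjusted edgeR p below 0.05 there was 1 of 9, Spi1, against 18.0% of all genes, a share near that background. The 18.0% is made up of 9.15% of genes higher in KO (0 of 9 factors) and 8.85% lower in KO (1 of 9). The log2 fold changes of KO over WT had a median of 0.06 over the 9 factors and 0.00 over all genes tested, with 6 higher and 3 lower. The 95% interval of the difference lay within a 2-fold change in either direction for 7 of the 9 factors, and within a 1.5-fold change for 5, Pparg, Cebpa, Cebpb, Spi1 and Klf4. For Egr2 and Maf the interval reached past 2-fold.

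**Figure D1:**
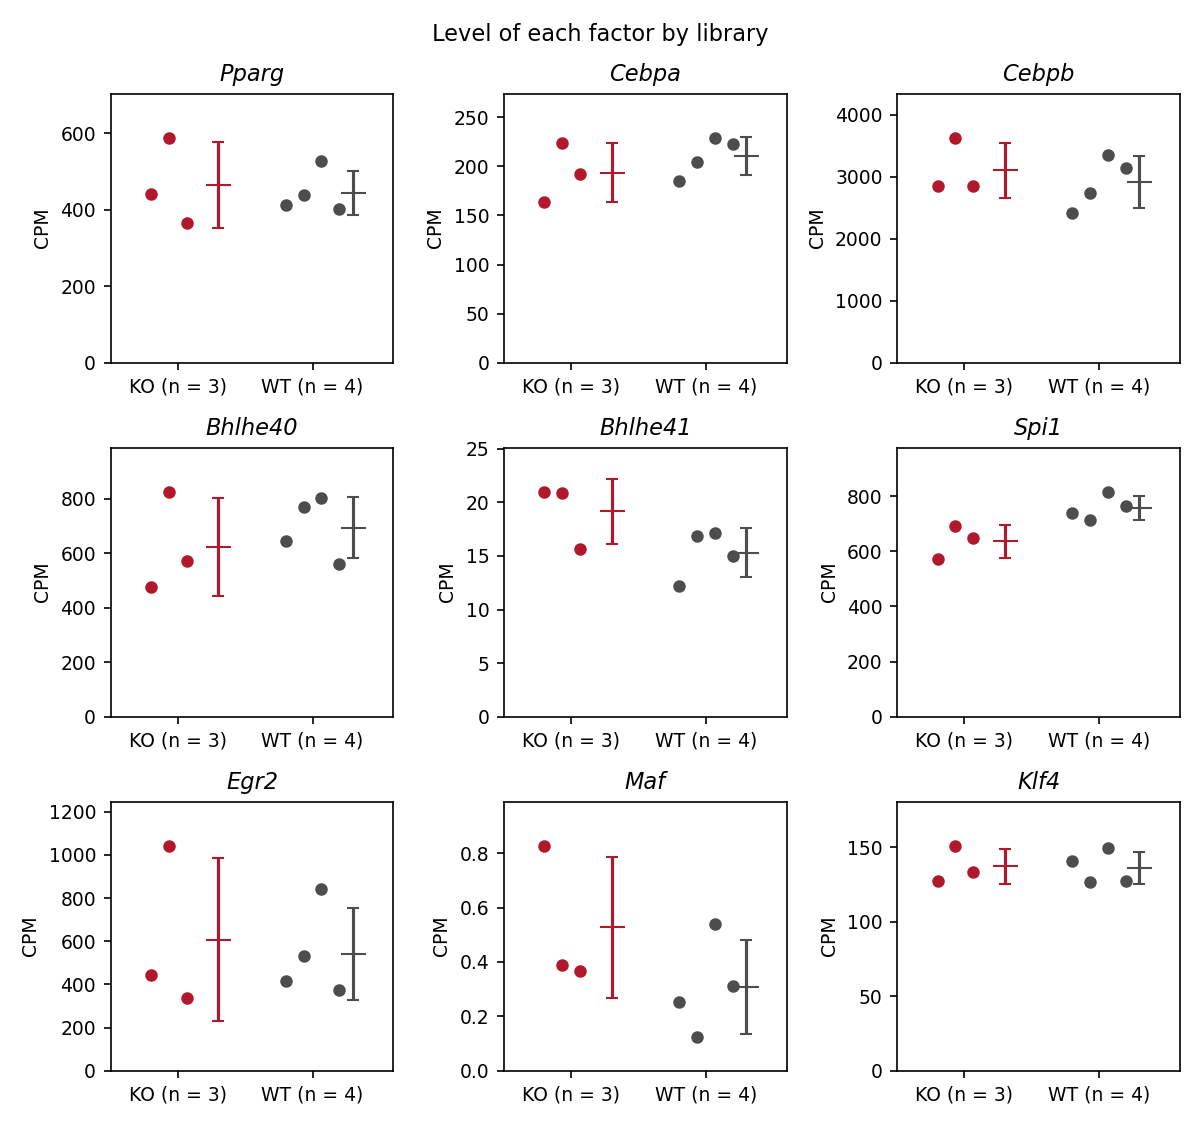
Level of each factor in CPM (vertical axes, each from 0) in the 3 KO and 4 WT libraries; points are libraries, and the bars give the mean and SD of the group. Only for Spi1 do all KO libraries lie below all WT libraries, with 573 to 691 CPM in KO and 714 to 814 CPM in WT.

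Sequences upstream of annotated starts are shown for 4 of the factors, because each holds a motif that another factor of the set, or its own protein, is known to bind. RefSeq windows of 300 bases (GRCm38.p6), of which 250 lie before the start, were present for 6 of the 9 factors, as 12 windows in all. They were searched on both strands for 5 motifs: TTGCNNAA (C/EBP), GAGGAA (PU.1), CACGTG (the E-box of BHLHE40 and BHLHE41), GCGNGGGCG (EGR) and TTCNNNGAA (STAT). The 250 bases before the start are printed 5′ to 3′ on the strand of the gene, with every match in capitals. The lines give the most downstream of 3 Pparg windows (chr6:115421816-115422065, plus strand), Klf4 (chr4:55532476-55532725, minus strand), Bhlhe41 (chr6:145865421-145865670, minus strand) and the second of 5 Egr2 windows (chr10:67537316-67537565, plus strand).
Pparg: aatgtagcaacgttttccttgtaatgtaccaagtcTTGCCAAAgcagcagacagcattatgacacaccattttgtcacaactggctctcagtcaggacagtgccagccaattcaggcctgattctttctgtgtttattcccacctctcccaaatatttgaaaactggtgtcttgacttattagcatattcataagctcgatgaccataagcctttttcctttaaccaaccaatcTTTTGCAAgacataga
Klf4: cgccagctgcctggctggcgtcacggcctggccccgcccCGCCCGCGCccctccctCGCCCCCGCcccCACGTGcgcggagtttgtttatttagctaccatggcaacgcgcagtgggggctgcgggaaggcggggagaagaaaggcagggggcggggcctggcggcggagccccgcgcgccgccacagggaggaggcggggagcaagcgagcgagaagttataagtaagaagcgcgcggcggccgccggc
Bhlhe41: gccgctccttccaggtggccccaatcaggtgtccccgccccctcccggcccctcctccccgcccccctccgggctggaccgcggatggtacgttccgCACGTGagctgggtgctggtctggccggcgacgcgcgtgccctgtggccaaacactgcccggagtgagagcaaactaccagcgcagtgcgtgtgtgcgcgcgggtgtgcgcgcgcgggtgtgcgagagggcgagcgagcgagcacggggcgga
Egr2: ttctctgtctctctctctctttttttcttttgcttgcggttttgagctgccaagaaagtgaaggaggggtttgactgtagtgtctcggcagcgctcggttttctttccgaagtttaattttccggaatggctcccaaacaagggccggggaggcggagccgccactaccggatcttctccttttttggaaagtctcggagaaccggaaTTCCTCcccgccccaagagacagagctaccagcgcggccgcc

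The Pparg window held 2 C/EBP matches, which began 215 and 16 bases before the start. Klf4 held 2 EGR matches, at 211 and 194 bases, and an E-box at 182 bases. Bhlhe41 held an E-box at 153 bases, and the Egr2 window a PU.1 match at 42 bases. Over the whole 300 bases, the C/EBP letters occurred in 1 of the 12 windows of these factors and in 10.8% of all 32851 windows, PU.1 in 5 of 12 and 28.3%, the E-box in 3 of 12 and 7.15%, EGR in 2 of 12 and 5.55%, and STAT in 0 of 12 and 8.30%. Of the 5 PU.1 windows 4 belong to Egr2, and 3 of those overlap one another, so the windows are not independent. A match says only that the letters are there.

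Among the factors that set the programme, Pparg (chr6:115360951-115490399, mm10) had 442, 587 and 365 CPM in KO and 413, 438, 528 and 401 CPM in WT. The groups overlapped throughout, with the highest and the lowest value of all 7 libraries both in KO. The mean was 465 CPM ± 113 (SD, n = 3) in KO and 445 CPM ± 57.4 (SD, n = 4) in WT, and the log2 fold change of KO over WT was 0.06 (SE 0.16, 95% interval -0.30 to 0.43; edgeR adjusted p 0.876). Without KO 2 the log2 fold change was -0.15, so its sign rested on that library.

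Upstream of Pparg, the list of GM-CSF and TGF-beta pathway genes had 13 tested genes, of which edgeR called 0 and DESeq2 0, and 0 reached an unadjusted p of 0.05. Their median log2 fold change was 0.07, with 9 higher and 4 lower. The GM-CSF receptor chain Csf2ra had 739 to 810 CPM in KO and 711 to 895 CPM in WT, and the shared beta chain Csf2rb had 263 to 328 CPM in KO and 273 to 284 CPM in WT. Stat5a, a transducer of the signal, had 36.1 to 42.5 CPM in KO and 33.4 to 42.2 CPM in WT. These 3 genes were picked after their values were seen. The TGF-beta receptor Tgfbr2 had 213 to 269 CPM in KO and 203 to 237 CPM in WT (log2 fold change 0.17, SE 0.10, edgeR adjusted p 0.415), and the integrin chain Itgav, which with its partners activates TGF-beta, had 14.0 to 19.5 CPM in KO and 8.84 to 17.1 CPM in WT (0.42, SE 0.23, edgeR adjusted p 0.372).

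Downstream, known PPARG targets lay on both sides of the Pparg value. Of 18 tested, 6 were higher and 12 lower, with a median log2 fold change of -0.07; edgeR called 0, an unadjusted p below 0.05 was found for 2 higher and 4 lower, against 9.15% and 8.85% of all genes, and DESeq2 called 2, both lower, against 2.72%. The lipid droplet protein Cidec had 316, 417 and 410 CPM in KO and 555, 636, 656 and 534 CPM in WT, without overlap (log2 fold change -0.64, SE 0.12, edgeR adjusted p 0.0898). The lipase inhibitor Angptl4 had 353, 361 and 340 CPM in KO and 451, 522, 459 and 402 CPM in WT, again without overlap (-0.39, SE 0.10, edgeR adjusted p 0.111). Cidec and Angptl4 are the 2 that DESeq2 called.

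The fatty acid binding protein gene Fabp5 went the other way, with 371, 194 and 259 CPM in KO and 109, 79.7, 69.9 and 179 CPM in WT (log2 fold change 1.33, SE 0.32, edgeR adjusted p 0.107). All KO libraries lay above all WT libraries, and WT 4 came closest to KO. Its relative Fabp4 had 528, 336 and 196 CPM in KO and 118, 120, 99.8 and 249 CPM in WT (1.27, SE 0.37, edgeR adjusted p 0.141), where WT 4 stood above KO 3. Without WT 4, edgeR called 284 genes in the whole table, 2.25%, among them 3 of the 18 targets, Cidec (adjusted p 0.0447), Fabp5 (0.0320) and Fabp4 (0.0455). For all 3, WT 4 held the WT value nearest to KO, so leaving it out widens the difference. The plot of Pparg beside its targets shows the spread of the targets around a Pparg value near 0.

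**Figure D2:**
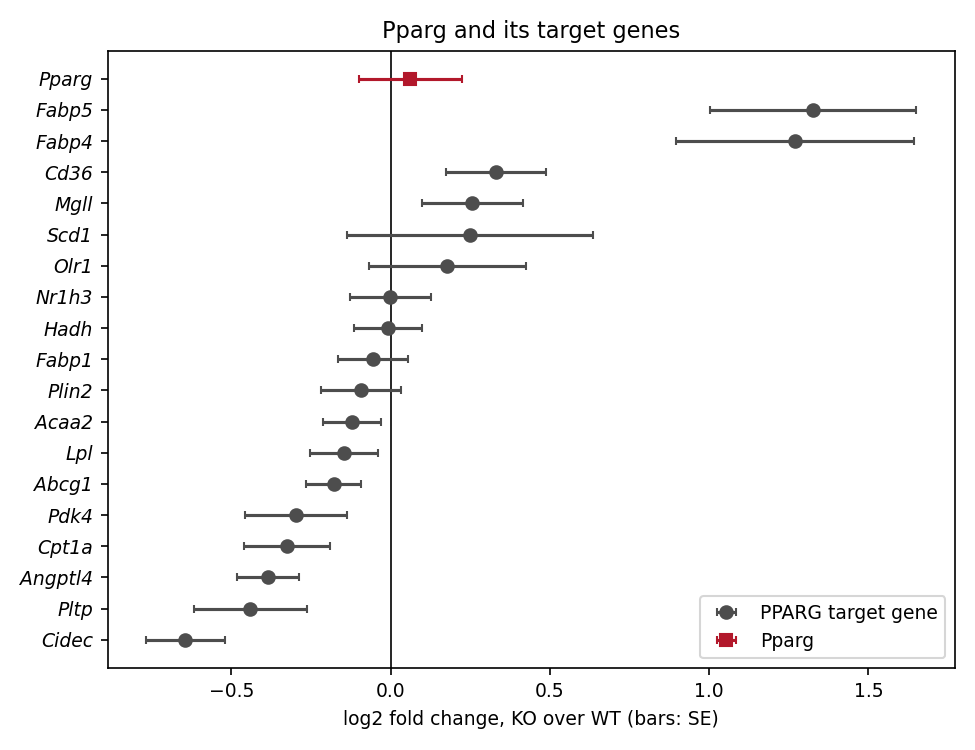
Log2 fold change of KO over WT with its SE (horizontal axis) for Pparg (square) and the 18 PPARG target genes (circles). Pparg lies at 0.06, while the targets run from -0.64 for Cidec to 1.33 for Fabp5.

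Cebpb, a C/EBP protein without which mice have few alveolar macrophages, was the most abundant of the 9, with 2854, 3618 and 2846 CPM in KO and 2414, 2730, 3343 and 3147 CPM in WT. The groups overlapped, with KO 2 highest and WT 1 lowest. The genotypes differed by 0.09 on the log2 scale (SE 0.14, 95% interval -0.21 to 0.40, edgeR adjusted p 0.757). The gene (chr2:167688915-167690418) shares 312 exonic bases, 20.7% of its exonic length, with Tmem189 on the other strand; the strand setting of the counting is not given, so reads of this stretch may belong to either gene, and Tmem189 had a median count of 8532 against 87317 for Cebpb.

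Cebpa (chr7:35119293-35121928), which acts earlier in myeloid commitment, had 164, 224 and 192 CPM in KO and 185, 205, 229 and 223 CPM in WT. KO 1 was the lowest library, and KO 2 lay inside the WT range. A log2 fold change of -0.12 was fitted (SE 0.12, 95% interval -0.39 to 0.15, edgeR adjusted p 0.632).

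Spi1 (chr2:91082390-91115756), which encodes the myeloid master factor PU.1, showed the smallest p of the set. It had 573, 691 and 647 CPM in KO and 737, 714, 814 and 763 CPM in WT, with every KO library below every WT library. Groups did not overlap for 1 of the 9 factors, against 16.0% of all genes tested. The mean was 637 CPM ± 59.4 (SD, n = 3) in KO and 757 CPM ± 42.8 (SD, n = 4) in WT. Fitted by edgeR, KO over WT gave -0.25 on the log2 scale (SE 0.09, 95% interval -0.46 to -0.04), with a p of 0.0229 and an adjusted p of 0.201, so the difference was not called; the adjusted p was 0.123 by DESeq2 and ran from 0.119 to 0.603 over 17 alternative settings. Irf8, a DNA-binding partner of PU.1, also had lower values in KO, with 142, 172 and 171 CPM in KO and 189, 176, 210 and 201 CPM in WT (log2 fold change -0.26, SE 0.10, edgeR adjusted p 0.213), without overlap. Irf4, listed with Irf8 among partners of the factors, went the other way (log2 fold change 0.99, SE 0.56, edgeR adjusted p 0.391). It had 1.88, 0.660 and 4.93 CPM in KO and 0.969 to 1.88 CPM in WT, with overlap.

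Bhlhe40 (chr6:108660629-108666925), a repressor that binds E-boxes, had 475, 824 and 573 CPM in KO and 646, 769, 803 and 561 CPM in WT. The KO libraries spanned a wider range than the WT libraries and enclosed it. On the log2 scale KO minus WT was -0.15 (SE 0.19, 95% interval -0.59 to 0.28, edgeR adjusted p 0.710), and 0.0092 without KO 1, where the sign turned.

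Its paralog Bhlhe41 (chr6:145858243-145865558) had far fewer reads, with 20.9, 20.9 and 15.6 CPM in KO and 12.2, 16.8, 17.2 and 15.0 CPM in WT. Bhlhe41 shares 1280 exonic bases, 19.0% of its exonic length, with Gm43909 on the other strand, for which no counts are given. As the strand setting is not given, reads of this stretch may belong to either gene. Of the Bhlhe41 values, KO 1 and KO 2 lay above all WT libraries and KO 3 within them. The log2 fold change was 0.33 (SE 0.16, 95% interval -0.03 to 0.68, edgeR p 0.0653, adjusted p 0.313), and it was positive in all 17 alternative settings, from 0.23 to 0.45. Alveolar macrophages are known for long-term self-renewal, to which BHLHE40 and BHLHE41 contribute in mice. Of the 19 tested cell cycle and self-renewal genes edgeR called 0; 12 were higher in KO, 6 of them at an unadjusted p below 0.05, and 7 were lower, 1 of them at such a p, where 9.15% and 8.85% of all genes had one. The median log2 fold change was 0.13. Mcm3, part of the replication helicase, had 105, 112 and 103 CPM in KO and 95.4, 75.9, 82.3 and 76.7 CPM in WT (log2 fold change 0.36, SE 0.10, edgeR adjusted p 0.121) and was the only gene of this list that DESeq2 called, 1 of 19 against 5.20% of all genes.

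Egr2 (chr10:67535475-67542188), a zinc-finger factor that can be induced within minutes of a stimulus, varied most between libraries of the same genotype among the 8 factors above 10 CPM. It had 445, 1040 and 336 CPM in KO and 416, 530, 844 and 376 CPM in WT, a 3.09-fold range within KO and a 2.24-fold range within WT. Its SD within genotypes, 0.67 on the log2 scale, exceeded that of 98.7% of the 8121 genes of at least 10 CPM, whose median was 0.14. Genotypes differed by 0.17 on the log2 scale (SE 0.39, 95% interval -0.72 to 1.05, edgeR adjusted p 0.861). It was -0.47 without KO 2, so the direction rested on that library, and 0.46 without WT 3.

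Klf4 (chr4:55527143-55532466), a zinc-finger factor of monocyte differentiation and of other resident macrophages, was the steadiest of the set between its highest and lowest library. It had 128, 151 and 133 CPM in KO and 141, 127, 150 and 127 CPM in WT, so the ranges overlapped almost fully. The log2 fold change was 0.01 (SE 0.09), and its 95% interval of -0.20 to 0.22 corresponds to 0.870-fold to 1.17-fold.

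Maf (chr8:115682942-115707794), the factor of other resident macrophages, was under 1 CPM in every library. The raw counts were 25, 10 and 10 reads in KO and 9, 4, 17 and 10 reads in WT, or 0.825, 0.389 and 0.368 CPM in KO and 0.252, 0.125, 0.541 and 0.313 CPM in WT. KO 1 was the highest library, and KO 2 and KO 3 lay within the WT range. The log2 fold change of 0.78 had an SE of 0.53 and a 95% interval of -0.41 to 1.98 (edgeR adjusted p 0.468), so it was not called; it was 0.30 without KO 1 and 1.19 without WT 3.

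**Figure D3:**
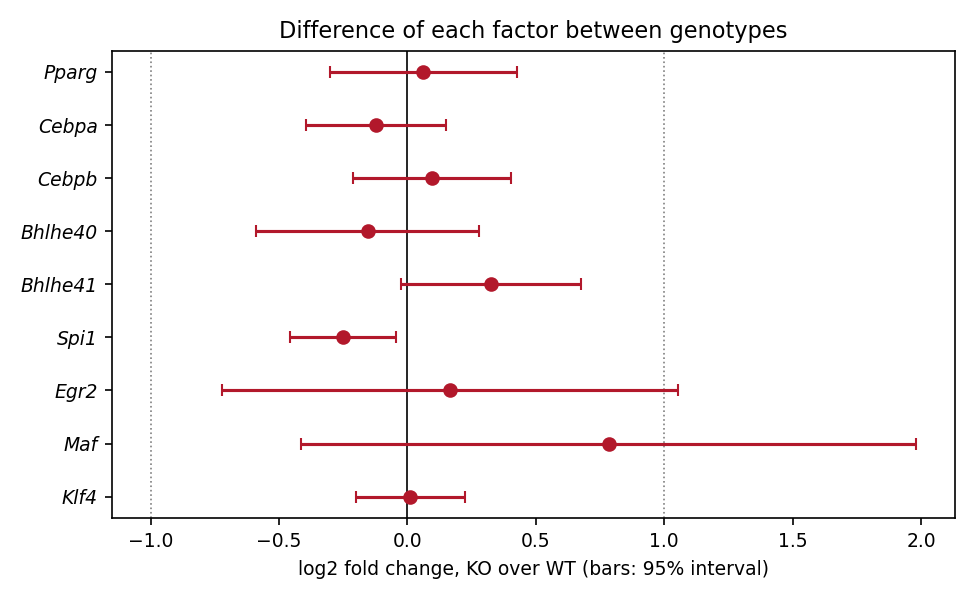
Log2 fold change of KO over WT (horizontal axis) with its 95% interval for the 9 factors; dotted lines mark a 2-fold change. The intervals of Egr2 and Maf cross a dotted line, that of Spi1 ends at -0.04, and the other 6 include 0 and stay between the lines.

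Genes typical of interstitial and other MAF-expressing macrophages stood beside this at mixed levels. Of 18 listed, 14 passed the low-count filter; 11 had higher and 3 lower values in KO, and the log2 fold changes had a median of 0.74. EdgeR called 0 and DESeq2 0, against 0.0862% and 5.20% of all genes, and an unadjusted edgeR p below 0.05 was found for 5 higher and 1 lower, against 9.15% and 8.85%. Those with the smallest p were mostly scarce: the scavenger receptor Stab1 had 0.331 to 0.528 CPM in KO and 0.0313 to 0.196 CPM in WT, and the chemokine Pf4 had 3.11 to 10.1 CPM in KO and 1.94 to 4.69 CPM in WT. The selenium carrier Selenop, by contrast, had 498 to 757 CPM in KO and 714 to 823 CPM in WT (log2 fold change -0.34, SE 0.14, edgeR adjusted p 0.248). Factors of macrophages in other tissues had 10 of 13 tested; edgeR called 0, DESeq2 called 0, none reached an unadjusted p of 0.05, and the median log2 fold change was 0.06. Among them the nuclear receptor Nr4a1 had 352, 498 and 482 CPM in KO and 458, 727, 1065 and 433 CPM in WT (-0.60, SE 0.30, edgeR adjusted p 0.334), and the inhibitor Id3 had 19.8 to 34.2 CPM in KO and 24.6 to 63.7 CPM in WT.

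Per kilobase of exonic sequence the order of mean levels over the 7 libraries was Cebpb, Spi1, Egr2, Pparg, Bhlhe40, Cebpa, Klf4, Bhlhe41 and Maf. Cebpb had 1605 to 2406 CPM per kilobase over the 7 libraries and Spi1 213 to 302, without overlap. Spi1 overlapped with Egr2, which it exceeded in 6 of 7 libraries. Egr2 (99.0 to 306), Pparg (124 to 199) and Bhlhe40 (101 to 175) overlapped, and Egr2 exceeded Pparg in only 3 of 7 libraries; by median Egr2, at 131, stood below Pparg, at 148, and Bhlhe40, at 137. Below them Cebpa had 62.3 to 86.7 CPM per kilobase, Klf4 41.6 to 49.4, Bhlhe41 1.82 to 3.11 and Maf 0.0152 to 0.100, each step without overlap. In these bulk libraries fewer cells that express a gene and less RNA per cell cannot be told apart.

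Across libraries several factors were high together, in KO 2 and WT 3, without regard to genotype. KO 2 held the highest or second-highest value for 7 of the 9 factors and WT 3 for 8 of 9, while the other 5 libraries together held 3 such values. For Pparg, Cebpb, Bhlhe40, Egr2 and Klf4 the order at the top was the same, with KO 2 first and WT 3 second. By comparison, KO 2 was the highest or second-highest library for 26.1% and WT 3 for 31.0% of the 8121 genes of at least 10 CPM. Counting the highest library alone, KO 2 had 5 of the 9 factors, against 12.4% of those genes, and WT 3 had 2 of 9, against 14.0%. Those shares leave out Maf, which is under 10 CPM and whose second place in WT 3, on 17 reads, is among the 8 above. Relative to its mean over the libraries, Egr2 lay 0.99 higher in KO 2 and 0.69 higher in WT 3 on the log2 scale, and Pparg 0.39 and 0.24 higher.

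Some relatives of Egr2 and Klf4 and other early-response genes were looked at beside them, picked after their values were seen. The early-response gene Egr1 had 151, 603 and 61.7 CPM in KO and 98.3, 223, 256 and 86.9 CPM in WT. Klf6 had 334, 749 and 325 CPM in KO and 326, 364, 520 and 363 CPM in WT. Klf2 was highest in WT 1, with 76.1, 84.7 and 72.7 CPM in KO and 96.4, 56.7, 74.6 and 72.0 CPM in WT. Nr4a1, another early-response gene, was highest in WT 3, at 1065 CPM, and next highest in WT 2, at 727 CPM. In KO 2 it had 498 CPM, beside 352 CPM in KO 1 and 482 CPM in KO 3. The EGR repressor Nab2 had 62.4 to 81.6 CPM in KO and 57.6 to 82.3 CPM in WT, with its lowest value in WT 3.

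Marker sums of other cells differed in how they stood in this pair of libraries. The red blood cell sum was highest in KO 2, at 856 CPM, and lowest in WT 3, at 13.6 CPM; the epithelial sum was likewise highest in KO 2, at 130 CPM, and lowest in WT 3, at 18.1 CPM. The fibroblast and endothelium sum was also highest in KO 2, at 17.8 CPM, and lowest in WT 3, at 1.65 CPM. The T and NK cell and neutrophil sums were highest in KO 1 and lowest in WT 3, at 1.88 and 7.76 CPM. The B cell sum was highest in KO 2, at 29.4 CPM, and was 16.1 CPM in WT 3, near the 16.6 CPM of WT 2, the highest in WT. The monocyte and dendritic cell sums were lowest in KO 2, at 85.0 and 3.42 CPM, and the eosinophil sum in WT 2. The part of these cells in the pattern was not tested. Without KO 2 and WT 3 together, edgeR called 0 of 9 factors, against 0.0387% of all genes, and without WT 4 and KO 3 together also 0 of 9, against 4.57%. Leaving out KO 2 and WT 3, the log2 fold change was -0.05 for Pparg, -0.17 for Egr2, -0.33 for Bhlhe40 and -0.28 for Spi1.

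**Figure D4:**
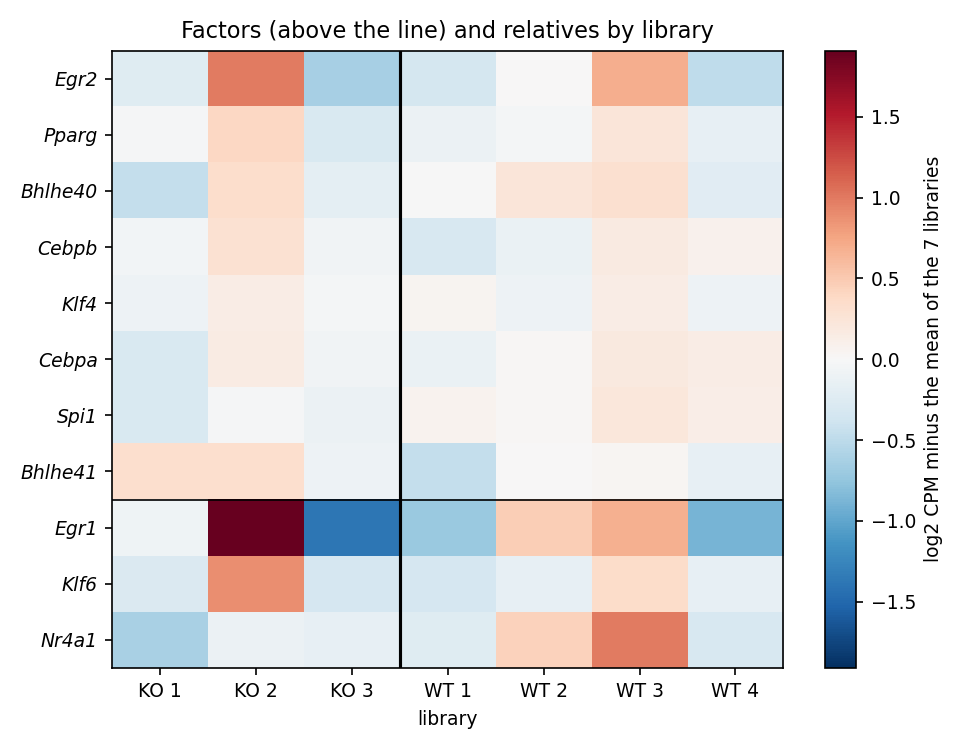
Log2 CPM minus the mean of the 7 libraries (colour) for 8 factors and, below the line, 3 other genes (Egr1, Klf6 and Nr4a1). KO libraries are left and WT libraries right of the vertical line. Egr2, Pparg, Bhlhe40, Cebpb and Klf4 are highest in KO 2 and next highest in WT 3, across the genotypes; Maf, at under 1 CPM, is left out.

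The genes whose centred log2 CPM profile over the 7 libraries was nearest to that of Pparg, among non-members of at least 10 CPM, were Tmem251, Rbm15 and Ints12, with root-mean-square differences of 0.05, 0.07 and 0.08 against a median of 0.26 over all candidates. Those nearest to Spi1 were Pex6, Map1lc3b and Apopt1, at 0.04 each, against a median of 0.20. In these 3 the highest library was WT 3, the next WT 4 and the lowest KO 1, as for Spi1.

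Of 27 listed paralogs and partners of the factors 23 were tested. EdgeR called 0, and DESeq2 called 1, against 5.20% of all genes, a share near that background. The 1 was Ddit3, a C/EBP relative induced by stress, with 53.3, 46.0 and 41.9 CPM in KO and 28.9, 30.7, 40.1 and 37.3 CPM in WT (log2 fold change 0.46, SE 0.13, edgeR adjusted p 0.140). An unadjusted p below 0.05 was found for 1 higher, Ddit3, and 1 lower, Irf8, against 9.15% and 8.85% of all genes. Of 2 others picked after their values were seen, Rxra, the partner of PPARG on DNA, had 76.2 to 104 CPM in KO and 61.7 to 102 CPM in WT, and Cebpg had 134 to 171 CPM in KO and 130 to 151 CPM in WT.

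Surface and other genes typical of alveolar macrophages were called in both directions by DESeq2, although edgeR called 0 of 20. Of these 10 had higher and 10 lower values in KO, and the median of the log2 fold changes was 0.07. DESeq2 called 3 higher and 4 lower, against 2.48% and 2.72% of all genes, and an unadjusted edgeR p below 0.05 was found for 7 higher and 5 lower, against 9.15% and 8.85%. The protease Ctsk had 1479, 965 and 923 CPM in KO and 570, 536, 653 and 754 CPM in WT (0.84, SE 0.18, edgeR adjusted p 0.0950), without overlap. The log2 difference of the receptor Siglecf was -0.41, with an edgeR adjusted p of 0.0950 and an SE of 0.09. The zinc transporter Slc39a2 had a value of 1.01 (SE 0.18, edgeR adjusted p 0.0797) and the adhesion receptor Cd2 of -0.34 (SE 0.09, edgeR adjusted p 0.116). Without WT 4 or without KO 3 edgeR called 3 genes of this list each, against 2.25% and 1.67% of all genes, among them Slc39a2 (adjusted p 0.0362 and 0.0376) and Ctsk (0.0477 and 0.0459). For Slc39a2 and Ctsk, WT 4 was the highest WT library and KO 3 the lowest KO library, so leaving either out widens the difference. This list, like the others, was chosen with earlier results of these data known. Whether genes of this list differed more than the factors was not tested.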

How the data were processed

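The authors deposited raw read counts per gene, made with rsubread per the file name; the submitters' processing notes name mm10 and DESeq2, and annotation and strand setting are not given in the sources. Of 27179 genes, 1036 without a symbol (0.376% to 0.424% of counts per library) were left out, and 26 symbols turned into dates were kept. The tests were run with edgeR 4.0.16 in R 4.3.3 (filterByExpr, TMM, quasi-likelihood F test on genotype, threshold 0.05). DESeq2 1.42.0 and limma 3.58.1 served as alternatives. The edgeR SE was computed as the absolute log2 fold change divided by the square root of the quasi-likelihood F statistic. Intervals extend a t quantile times this SE to each side of the difference. They are approximate and reflect only the spread between these libraries. Exonic lengths and positions are GENCODE M21. Members and lists were chosen with earlier results of these data known. Named genes are all members, Cish, up to 4 genes per list with the smallest edgeR p, and the 3 nearest profiles to Pparg and to the member with the smallest p; exceptions are marked. The low-count filter kept all 9 members. An exact permutation test of 3 against 4 libraries cannot go below 0.0286 one-sided and was not used. Reads carry no molecular identifiers.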

Additional observations from a re-analysis of the deposited data

Results flagged for a closer look

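In the 4 WT libraries, a value was set apart where its gap to the nearest other, divided by the range, exceeded Dixon's 95% critical value. This was the case for 3 of 38 genes examined, none of them among the 9 factors; chance alone sets apart about 1 in 20 such groups. The PPARG target Fabp4 stood at 249 CPM in WT 4, against 99.8 to 120 CPM in the other WT libraries, and Irf4 at 1.88 CPM in WT 4, against 0.969 to 1.09 CPM. Mcm2 stood at 44.3 CPM in WT 1, against 33.5 to 33.9 CPM.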

How the results depend on the processing

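The factors stayed uncalled, 0 of 9, under all 17 alternatives, with a lowest adjusted p of 0.119 (Spi1, voom of limma). Over all genes edgeR called 11. DESeq2 called 730, edgeR without a filter 397, with at least 5 CPM in at least 3 libraries 21, voom 46, without WT 4 and KO 3 together 590, and without KO 2 and WT 3 together 5, the last chosen after seeing the data. With single libraries left out the count lay between 7 (without WT 1) and 284 (without WT 4), with 217 without KO 3. Without WT 4 and KO 3 together 0 of 9 factors were called, against 4.57% of all genes. The replicate number as a block gave 430. No KO library carries number 4, so the block also takes WT 4 out of the genotype comparison, and its effect was not separated from that. Same-numbered libraries deviated together only for number 2 (correlation 0.14, against -0.01 and -0.02 for numbers 1 and 3), so the numbers were not taken as pairs. The WT library that best matched each KO library carried another number in 3 of 3. The sign turned in 18 of 152 values of factors. For Pparg it was -0.015 with voom, -0.0034 with the block and -0.050 without KO 2 and WT 3. For Egr2 these were -0.11, -0.075 and -0.17. For Klf4 they were -0.017, -0.020 and -0.014, with -0.041 for library sizes only and -0.0023 without a filter. With single libraries left out, values ran from -0.15 to 0.21 for Pparg, -0.034 to 0.17 for Cebpb, -0.41 to 0.0092 for Bhlhe40, -0.47 to 0.46 for Egr2 and -0.065 to 0.062 for Klf4. The cause was not tested. Maf gave no value with at least 5 CPM. Maf, with 4 to 25 reads per library, is the factor with the fewest counts.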
